A study of Homo sapiens with 9 samples.

Results

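The genes described here belong to the NRF2 antioxidant response. They were NFE2L2, KEAP1, SQSTM1, GCLC, GCLM, TXNRD1, SRXN1, NQO1 and HMOX1, taken by symbol, and all 9 had a row among the 38021 genes of the count table. RNA came from 786-O cells, an established human clear cell renal cell carcinoma line without functional VHL, in which HIF2α (EPAS1) is stable at normal oxygen. Cells carried a lentiviral PLKO.1 short hairpin RNA (shRNA) against no human gene (shControl), against ARNT (shARNT) or against BMAL1 (shBMAL1). All were selected for 1 week in 2.5 µg/mL puromycin and then kept in 1.25 µg/mL. There were 3 libraries per group, named biological replicates in the labels, and each targeted gene was hit by a single hairpin sequence. Values therefore describe selected cell populations under 1 hairpin per gene. The labels do not say whether replicates came from separate infections, so p values measure the spread between these libraries.

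NRF2, the protein of NFE2L2, is a transcription factor that switches on genes for glutathione and thioredoxin metabolism, NADPH supply and detoxification. KEAP1 holds NRF2 in the cytoplasm and, with the ligase scaffold CUL3, has it degraded until oxidants or electrophiles modify KEAP1. Freed NRF2 binds the antioxidant response element (ARE) together with a small MAF protein, while BACH1 occupies many of the same elements as a repressor. SQSTM1 (p62) is a selective autophagy receptor that can sequester KEAP1. Because NRF2 is controlled mainly through protein stability, its mRNA is a poor measure of its activity, and target mRNAs are usually read instead.

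The shared element of these genes was looked up first, because it is the part of the sequence through which NRF2 is known to act. Each window was the 2000 bases upstream of the annotated start of the MANE Select transcript, the representative transcript of the gene. Gene positions given below span all annotated transcripts, so a window can lie inside them. Other annotated starts were not searched. The windows were read from GRCh37 and searched on both strands for the ARE core TGACNNNGC. It occurred in 6 of the 9 genes with 9 matches, and in 52.5% of 18922 protein-coding genes, so a match in this window does not set these genes apart. The form TGACTCAGC, looked up after it was seen upstream of NQO1, was present for 2 of the 9 genes and for 2.55% of all. Capitals mark the ARE core, and each line is written 5′ to 3′ on the strand that holds it.
NQO1, 455 bases upstream (chr16:69760900-69760928, minus strand): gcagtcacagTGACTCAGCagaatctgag
SQSTM1, 352 bases upstream (chr5:179247543-179247571, minus strand): ggcctggccaTGACTCAGCaatatcctca
SQSTM1, 1320 bases upstream (chr5:179246575-179246603, minus strand): tggccaagcgTGACTCAGCagcccaggcg
GCLM, 34 bases upstream (chr1:94375002-94375030, plus strand): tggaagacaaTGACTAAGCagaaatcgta
TXNRD1, 99 bases upstream (chr12:104609448-104609476, plus strand): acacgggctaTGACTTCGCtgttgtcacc

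The E-box CACGTG, the element that BMAL1 binds with CLOCK, was searched in the same windows. Its letters also fit N(G/A)CGTG, the hypoxia response element that the paper gives for HIF2α heterodimers. That wider element was not searched, so a match does not separate the 2 kinds of site. The E-box result is given next. CACGTG was found for 5 of the 9 genes and for 27.5% of all protein-coding genes. The 2 shown lie closest to the start of HMOX1 and beside an ARE core of SQSTM1, with the E-box in capitals.
HMOX1, 48 bases upstream (chr22:35777031-35777056, plus strand): ccgcctggccCACGTGacccgccgag
SQSTM1, 1345 bases upstream (chr5:179246550-179246575, plus strand): cggcgggggcCACGTGgctctcaggc
No ARE core lay in this window for NFE2L2, KEAP1 or SRXN1, which says only that these letters are absent from it. Binding of any factor was not measured in these libraries.

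**Figure D1:**
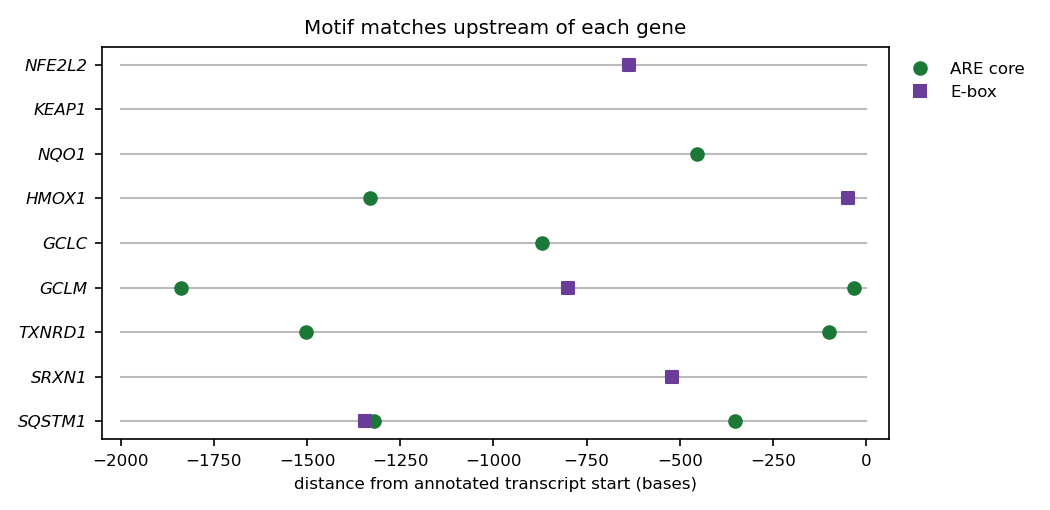
Positions of ARE core (TGACNNNGC, circles) and E-box (CACGTG, squares) matches in the 2000 bases upstream of the MANE Select transcript start of each gene, with distance in bases on the x axis. SQSTM1 holds an E-box and an ARE core 1345 and 1320 bases upstream, and KEAP1 holds neither motif.

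Library totals ran from 33793043 to 35444731 reads. Same-group libraries differed by more than sampling noise (chi-square per degree of freedom 7.18 to 16.4), so none was a copy of another. Mitochondrial genes took 5.49% to 7.18% of reads in shControl, 7.63% to 8.78% in shARNT and 8.77% to 9.72% in shBMAL1. Every call on the 9 genes in each comparison was the same when size factors were estimated without the mitochondrial genes. ARNT went from 2352 ± 184 normalised read counts in shControl to 1226 ± 23.2 in shARNT, and BMAL1 (ARNTL in the files) from 761 ± 32.0 to 326 ± 29.2 in shBMAL1 (SD, n = 3). Each hairpin group also had less of the other target, with a log2 fold change of −0.26 for ARNTL under shARNT (DESeq2 adjusted p 0.0294) and −0.23 for ARNT under shBMAL1 (0.0187). These calls were lost without shControl replicate 2 (0.15 and 0.162), without shARNT replicate 3 for ARNTL (0.22) and without shBMAL1 replicate 2 for ARNT (0.109). All 8 renal carcinoma markers examined, PAX8 and VIM among them, were detected in every library, their summed counts running from 202814 to 207416 in shControl, 190170 to 198573 in shARNT and 204940 to 219545 in shBMAL1. Of these 8, 2 were called higher and 3 lower under shARNT, and 2 higher and 4 lower under shBMAL1. CDH6 rose 2.02-fold and 3.29-fold, while PAX8 (log2 fold change −0.49) and KRT18 (−0.40) fell under shBMAL1. PAX2 rose under shBMAL1 (0.43, DESeq2 adjusted p 0.000193), and EPAS1 fell under shARNT (−0.23, adjusted p 0.000563). Of 8 markers of other cells, CD3E, CDH5 and UMOD were at 0 throughout and PTPRC, PECAM1 and ALB stayed below 9 counts, while COL1A1 reached 164 and the lysosomal gene CD68 lay between 5325 and 7882. The sum of these 8 ran from 7269 to 8025 in shControl, 6845 to 7461 in shARNT and 5468 to 6901 in shBMAL1, and CD68 made up nearly all of it. CD68 was lower under shBMAL1 (log2 fold change −0.31, DESeq2 adjusted p 0.00152) and COL1A1 under shARNT (−0.41, adjusted p 0.0993). The part of these markers in the results was not tested.

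Levels were first compared between genes in shControl, as RPKM, reads scaled to the length of the MANE Select transcript and to the counted total of the library. SQSTM1 was the most abundant at 171 ± 4.53, followed by TXNRD1 at 105 ± 6.23, NFE2L2 at 84.8 ± 3.62 and NQO1 at 40.1 ± 2.37 (SD, n = 3). KEAP1, at 25.5 ± 1.13, was thus less abundant than the transcript of the factor it restrains. The low end held GCLC at 9.16 ± 0.032, GCLM at 7.90 ± 0.509, HMOX1 at 6.68 ± 0.125 and SRXN1 at 3.11 ± 0.393. Another gene model on the same strand shares 90.7% of the SRXN1 transcript. How reads of shared exons were assigned is not given, so the level of SRXN1 is uncertain. Each gene in this order lay above the next in all 3 shControl libraries.

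Under shARNT the pathway genes were either higher or not called. Of the 9, 6 were higher and 0 lower than in shControl at a DESeq2 adjusted p under 0.1, where 35.4% of 15164 tested genes were called and 16.5% were higher. Their median log2 fold change was 0.20, against 0.0028 over all tested genes. HMOX1 and SQSTM1 had the 2 largest increases, by 2.20-fold and 1.68-fold, and NQO1 followed with 1.34-fold.

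Under shBMAL1 3 genes were lower and 0 higher, and the called share of 33.3% was close to the 36.8% of 19036 genes tested. The share of lower calls over all genes was 19.4%. GCLM, TXNRD1 and SQSTM1 were the 3, at 0.586, 0.698 and 0.879 of their shControl level. The median of the 9 was −0.15, against 0.015 over all tested genes. Both knockdowns were set against the same 3 shControl libraries, so the comparisons are not independent of each other.

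Set directly against shARNT, shBMAL1 had lower levels of 7 of the 9 genes and higher levels of 0, where 35.3% of 18181 genes were called and 18.0% were lower in shBMAL1. The log2 differences of all 9 were below 0, from −0.93 for SQSTM1 to −0.04 for SRXN1, with a median of −0.48 against 0.0094 over all tested genes. NFE2L2 and SRXN1 were the 2 not called.

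**Figure D2:**
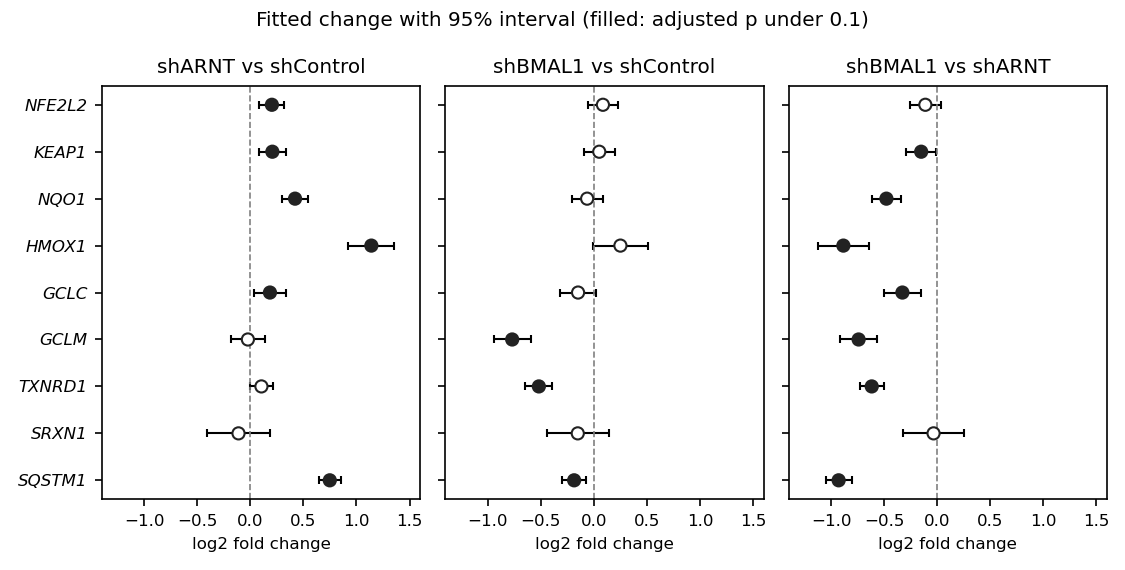
Log2 fold change (x axis) of the 9 genes in each comparison with its 95% interval from the DESeq2 standard error, where filled points passed an adjusted p of 0.1. All filled points lie above 0 for shARNT against shControl and below 0 in the other panels.

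The regulators are described first. NFE2L2 (chromosome 2, 178083395 to 178257484, minus strand, protein-coding, GRCh37) had 7271, 7606 and 6952 normalised read counts in the shControl libraries. The shARNT libraries gave 8130, 8988 and 7940, and the shBMAL1 libraries 7942, 8195 and 7055. All shARNT libraries were thus above all shControl libraries, while shBMAL1 overlapped both groups. Groups failed to overlap in this way for 43.9% of genes tested under shARNT, 45.2% under shBMAL1 and 43.9% between the knockdowns. The log2 fold change of NFE2L2 was 0.20 under shARNT (SE 0.06, DESeq2 adjusted p 0.00398). It was not called under shBMAL1 (0.09, 95% interval −0.06 to 0.23, adjusted p 0.424) or between the knockdowns (−0.11, interval −0.26 to 0.03, adjusted p 0.281).

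KEAP1, the substrate adaptor that targets NRF2 for degradation, lies on chromosome 19 (10596801 to 10614234, minus strand). Its counts were 2246, 2429 and 2213 in shControl, 2728, 2646 and 2558 in shARNT, and 2476, 2271 and 2397 in shBMAL1. The shARNT libraries were again above the others without overlap. KEAP1 rose under shARNT by 0.21 (SE 0.06, adjusted p 0.00617), nearly the same increment as NFE2L2. No change was called under shBMAL1 (0.05, interval −0.10 to 0.20, adjusted p 0.680). Between the knockdowns it was lower in shBMAL1 (−0.15, adjusted p 0.0934). That last call was lost without shARNT replicate 1, 2 or 3 (adjusted p 0.282, 0.199 and 0.114) and without shBMAL1 replicate 2 or 3 (0.302 and 0.153).

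SQSTM1 (chromosome 5, 179233398 to 179265078, plus strand), the autophagy receptor that binds KEAP1, was the one gene of the 9 called in all 3 comparisons. It had 16506, 17109 and 17642 counts in shControl and 29809, 29282 and 26825 in shARNT. In shBMAL1 it had 15430, 14693 and 14991, below every shControl library. The log2 fold change was 0.75 under shARNT (SE 0.05, adjusted p 4.1e-43) and −0.19 under shBMAL1 (SE 0.06, adjusted p 0.0066). The knockdowns differed by −0.93 (shBMAL1 minus shARNT, adjusted p 3.24e-48), the most significant difference among the 9 genes.

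Exons of MRNIP, a DNA repair gene listed as C5orf45, run opposite to SQSTM1 over 55.7% of the SQSTM1 transcript in the annotation. Whether reads were counted by strand is not given in the sources used here, so the reads of this pair may be divided uncertainly. Counts of C5orf45 were 835 ± 43.0 in the control group, against 1411 ± 95.7 with shARNT and 739 ± 44.9 with shBMAL1 (SD, n = 3). The log2 fold changes of C5orf45 were 0.76 under shARNT (adjusted p 4.26e-18), −0.18 under shBMAL1 (adjusted p 0.165) and −0.93 between the knockdowns (adjusted p 3.7e-22), nearly those of SQSTM1. Raw reads given to C5orf45 numbered 682 to 1510 per library, far fewer than those of SQSTM1. Exons of NQO1, NFE2L2, GCLC and SRXN1 also overlap other annotated genes. A long non-coding RNA covers 22.8% of the NQO1 transcript, others cover 7.77% of NFE2L2 and 6.66% of GCLC, all on the opposite strand, and a protein-coding gene model on the same strand shares 90.7% of the SRXN1 transcript.

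Glutamate-cysteine ligase makes the first and rate-limiting step of glutathione synthesis. Its catalytic subunit, GCLC (chromosome 6, 53362139 to 53481768, minus strand), had 1198, 1234 and 1218 counts in shControl. It had 1276, 1468 and 1395 in shARNT, and 1183, 1076 and 1038 in shBMAL1. The 3 groups did not overlap, and the shControl libraries lay between the knockdowns within a narrow band. GCLC was called under shARNT (0.18, SE 0.08, adjusted p 0.0575). The call was lost without shControl replicate 1, 2 or 3 (adjusted p 0.183, 0.113 and 0.134) and without shARNT replicate 2 or 3 (0.297 and 0.168). Under shBMAL1 GCLC was not called (−0.15, interval −0.32 to 0.02, adjusted p 0.195) except without shBMAL1 replicate 1 (−0.20, adjusted p 0.0741). The knockdowns differed by −0.33 (SE 0.09, adjusted p 0.00155), which held in all alternatives except the 1.5-fold minimum.

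GCLM (chromosome 1, 94350755 to 94375012, minus strand) encodes the modifier subunit, which raises the efficiency of the catalytic subunit. Counts were 1408, 1392 and 1261 in shControl and 1294, 1433 and 1257 in shARNT, with the groups intermixed. The shBMAL1 libraries held 778, 805 and 800.0, all far below. With a log2 fold change of −0.77 under shBMAL1 (SE 0.09, adjusted p 8.73e-17), GCLM had the largest fall of the 9. Under shARNT no change was called (−0.02, interval −0.18 to 0.13, adjusted p 0.872), and the sign turned without shControl replicate 1 (0.0039) or shARNT replicate 3 (0.01). The direct difference was −0.74 (SE 0.09, adjusted p 3.7e-15). Both subunits of the ligase were thus lower in shBMAL1 than in shARNT.

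Thioredoxin reductase 1 uses NADPH to keep thioredoxin reduced. TXNRD1 (chromosome 12, 104609557 to 104744085, plus strand) had 14292, 14937 and 13240 counts in shControl and 15341, 14700 and 15494 in shARNT. In shBMAL1 it had 10136, 9656 and 9892, below every other library. With shBMAL1 the log2 fold change of TXNRD1 was −0.52 (SE 0.06, adjusted p 3.66e-14), and the gene was lower than in shARNT by 0.62 (adjusted p 7.96e-25). Under shARNT it was not called (0.10, interval −0.0024 to 0.21, adjusted p 0.142), although it passed without shControl replicate 2 (0.14, adjusted p 0.0534) and with size factors from library totals (0.13, adjusted p 0.0691).

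SRXN1 (chromosome 20, 627259 to 633844, minus strand), whose product sulfiredoxin restores overoxidised peroxiredoxins, was the least abundant of the 9 by its counted reads. It had 254, 258 and 317 counts in shControl, 276, 226 and 263 in shARNT, and 246, 258 and 243 in shBMAL1. All groups overlapped. No comparison called it, with −0.11 under shARNT (interval −0.41 to 0.18, adjusted p 0.640), −0.15 under shBMAL1 (interval −0.44 to 0.14, adjusted p 0.5) and −0.04 between the knockdowns (interval −0.32 to 0.25, adjusted p 0.901). The last of these turned sign without shARNT replicate 1 (0.02).

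NQO1, a quinone reductase and the classical reporter of NRF2 activity, lies on chromosome 16 (69740899 to 69760571, minus strand). It had 3368, 3824 and 3449 counts in shControl, 4464, 4889 and 4860 in shARNT, and 3528, 3445 and 3226 in shBMAL1. The shARNT libraries stood above all others, and shBMAL1 overlapped shControl. NQO1 rose under shARNT by 0.42 (SE 0.06, adjusted p 1.4e-09) with no call under shBMAL1 (−0.06, interval −0.21 to 0.08, adjusted p 0.588). It was lower in shBMAL1 than in shARNT by 0.48 (SE 0.07, adjusted p 1.33e-10).

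HMOX1 (chromosome 22, 35776354 to 35790207, plus strand) encodes heme oxygenase 1, which opens the heme ring and is controlled by BACH1 and HIF as well as NRF2. Counts were 352, 370 and 371 in shControl, 845, 859 and 700 in shARNT, and 402, 397 and 502 in shBMAL1. None of the groups overlapped. HMOX1 rose by 1.14 under shARNT (SE 0.11, adjusted p 2.57e-23), the largest change of the 9 genes in any comparison. Under shBMAL1 it was not called with the DESeq2 settings used throughout (0.25, interval −0.01 to 0.51, adjusted p 0.142). It passed there with edgeR (adjusted p 0.0761) and with DESeq2 on library totals (0.0836), after a count filter (0.0940) or in a fit of all 9 libraries (0.0985). No fit that left out a library called it, with values from 0.13 to 0.31 (DESeq2 adjusted p 0.116 to 0.559). Between the knockdowns HMOX1 was lower in shBMAL1 by 0.89 (SE 0.12, adjusted p 2.15e-11).

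**Figure D3:**
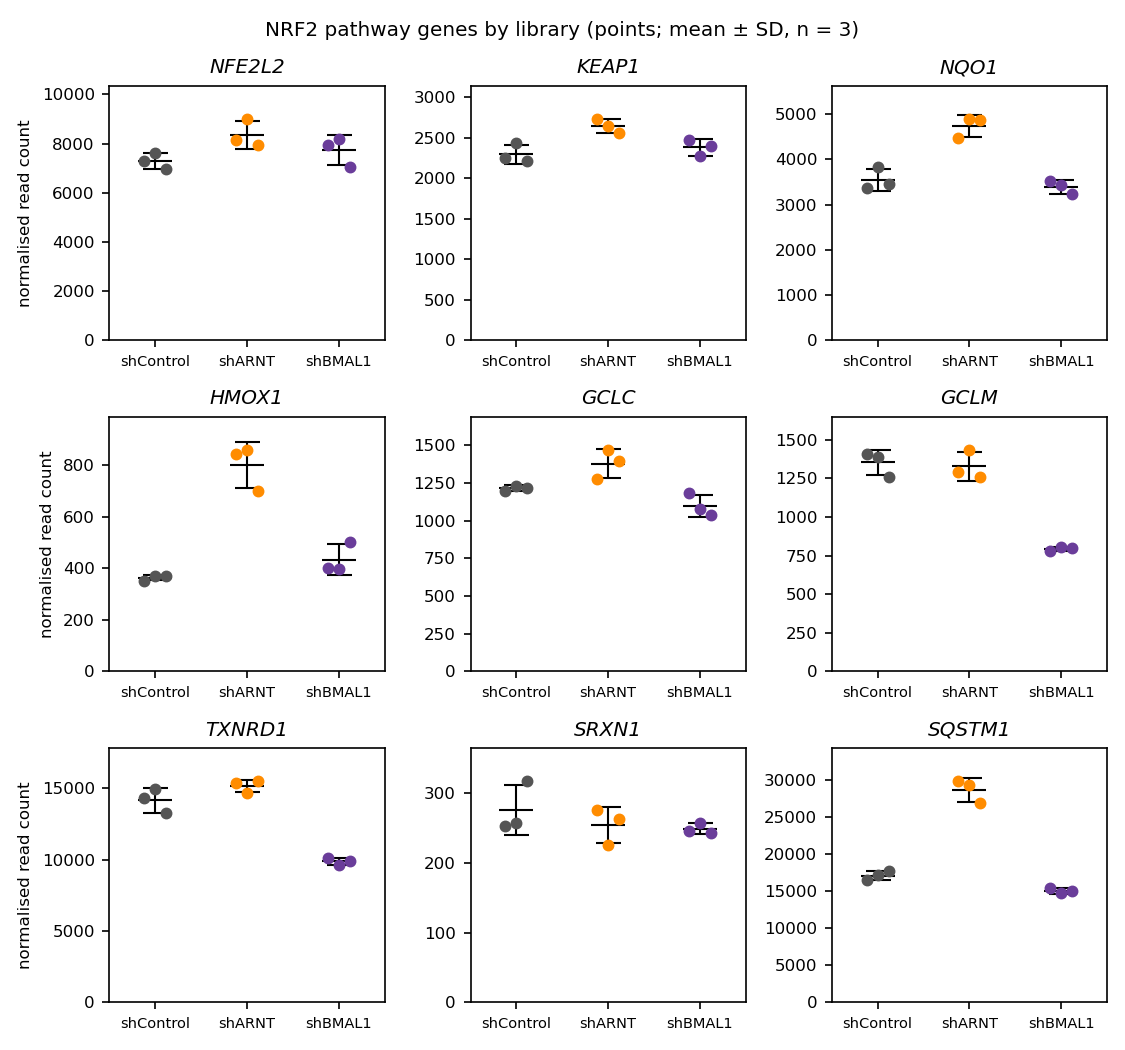
Normalised read counts (y axis, from 0) of the 9 genes in each library, with points for libraries and bars for mean ± SD (n = 3) in shControl (grey), shARNT (orange) and shBMAL1 (purple). SQSTM1, HMOX1 and NQO1 stand highest in shARNT, while GCLM and TXNRD1 stand lowest in shBMAL1.

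Partners and regulators of NRF2 were then counted from a list of 14 genes. Under shARNT 3 of 13 tested were higher and 3 lower, and under shBMAL1 0 of 14 were higher and 6 lower, with median log2 fold changes of 0.02 and −0.17. These called shares of 46.2% and 42.9% compare with 35.4% (16.5% higher, 19.0% lower) and 36.8% (17.4% higher, 19.4% lower) over all genes tested, and the same background applies to each list that follows. After a filter for at least 10 counts in 3 libraries, the shares over all genes were 35.9% under shARNT and 45.6% under shBMAL1. CUL3, the ligase scaffold that works with KEAP1, was called in neither (0.11, adjusted p 0.110, and 0.07, adjusted p 0.517). MAFF, a small MAF protein that pairs with NRF2, went from 108, 111 and 141 counts in shControl to 51.6, 68.7 and 55.7 in shARNT and 49.6, 54.4 and 74.4 in shBMAL1. It fell by 1.03 (adjusted p 0.000217) and 1.01 (adjusted p 0.000399), and no difference between the knockdowns was called (0.02, interval −0.56 to 0.60).

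The other small MAF genes had smaller log2 fold changes. MAFG passed as lower with shBMAL1 (−0.44, adjusted p 0.0612), whereas with shARNT it did not pass (−0.10, adjusted p 0.734). The MAFG call was lost without shControl replicate 1 (adjusted p 0.278) and without shBMAL1 replicate 1, 2 or 3 (0.110, 0.203 and 0.116). MAFK was called in neither knockdown (−0.33, adjusted p 0.391, and −0.05, adjusted p 0.927).

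BACH1, the repressor at many AREs, was lower under shBMAL1 (−0.24, adjusted p 0.0330). This was lost without shControl replicate 3 (adjusted p 0.153) and without shBMAL1 replicate 1 (0.122). Under shARNT BACH1 was not called (−0.16, interval −0.33 to 0.0010, adjusted p 0.134). BTRC, a ubiquitin ligase subunit that also recognises NRF2, fell by 0.65 under shBMAL1 (adjusted p 1.76e-12). NFE2L3, an NRF2 relative, was lower in both knockdowns (−0.30, adjusted p 1.85e-05, with shARNT, and −0.62, adjusted p 7.42e-15, with shBMAL1). PALB2 (0.31, adjusted p 0.000933) and CREBBP (0.22, adjusted p 0.00812), a coactivator, were higher under shARNT, the latter not without shARNT replicate 1 (0.14, adjusted p 0.117).

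Glutathione genes beyond the 2 ligase subunits moved in both directions. Of 23 listed, 5 were higher and 6 lower among 19 tested under shARNT, and 2 were higher and 9 lower among 22 under shBMAL1, with medians of −0.07 and −0.13. The called shares were 57.9% and 50%, against 35.4% and 36.8% over all genes. SLC7A11, the cystine transporter that supplies glutathione synthesis and a known NRF2 target, had 1907, 2114 and 1891 counts in shControl, 1119, 1046 and 1164 in shARNT and 1368, 1642 and 1608 in shBMAL1. It fell in the knockdown in which NQO1, HMOX1 and SQSTM1 rose (−0.83, SE 0.08, adjusted p 1.92e-25), and less under shBMAL1 (−0.36, SE 0.09, adjusted p 0.000422). The direct difference of SLC7A11 was 0.47 (adjusted p 4.53e-06). CHAC1, a glutathione-degrading enzyme, fell under shARNT as well (−1.05, adjusted p 1.83e-13).

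Glutathione reductase, GSR, rose under shARNT (0.40, adjusted p 4.3e-11), with no call for shBMAL1 (0.08, adjusted p 0.447). GPX3, a secreted glutathione peroxidase, went from 115 ± 12.4 counts in shControl up to 167 ± 6.29 in shARNT (0.55, adjusted p 0.0155) and down to 70.4 ± 14.2 in shBMAL1 (−0.70, adjusted p 0.0145). GSTP1, a glutathione transferase, fell under shBMAL1 (−0.64, adjusted p 1.34e-15) and shARNT (−0.56). GGT1, which breaks down extracellular glutathione, rose under shBMAL1 (0.62, adjusted p 4.41e-17). GSTM4 was called there too (0.23, adjusted p 0.0845) but in none of the fits that left out a library (adjusted p 0.102 to 0.276).

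The thioredoxin and peroxiredoxin list held 15 genes, all tested. Under shARNT 6 were higher and 3 lower, and under shBMAL1 3 were higher and 3 lower. The called share was 60% under shARNT, above the background of 35.4%, and 40.0% under shBMAL1, close to that of 36.8%. TXN, thioredoxin itself and the substrate of TXNRD1, had 6091, 6518 and 6700 counts in shControl, 6183, 5963 and 6055 in shARNT and 4617, 4632 and 4065 in shBMAL1. Like its reductase it fell under shBMAL1 (−0.54, SE 0.07, adjusted p 4.04e-12), without a call for shARNT (−0.08, adjusted p 0.266). PRDX5, a peroxiredoxin, was lower in both knockdowns (−0.27, adjusted p 0.000464, with shARNT, and −0.34, adjusted p 0.00472, with shBMAL1). The thioredoxin inhibitor TXNIP fell under shARNT (−0.60, adjusted p 7.97e-11) and rose under shBMAL1 (0.42, adjusted p 2.18e-05). SESN1, a sestrin, rose under both (0.60 and 0.47), and TXNRD3 fell under shARNT (−0.49, adjusted p 0.000736). GLRX2 was called under shARNT (0.27, adjusted p 0.0780), and that call held only without shARNT replicate 1 among the fits that left out a library (otherwise adjusted p 0.120 to 0.340).

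NADPH supplies both reductase systems and NQO1. Of 7 genes, 4 were higher and 1 lower under shARNT, and 1 was higher and 3 lower under shBMAL1, called shares of 71.4% and 57.1% against 35.4% and 36.8% over all genes. PGD and TKT, enzymes of the pentose phosphate pathway, fell under shBMAL1 (−0.36 and −0.32, adjusted p 4.22e-06 and 3.16e-05). Under shARNT TKT (0.16, adjusted p 0.00266) and PGD (0.13, adjusted p 0.0750) were higher. The PGD call was lost in 4 of the 6 fits that left out a library. ME1, malic enzyme 1, was called under shARNT (0.16, adjusted p 0.0572) but not without shControl replicate 3 (0.12, adjusted p 0.262), shARNT replicate 1 (0.17, adjusted p 0.111) or shARNT replicate 2 (0.11, adjusted p 0.345). Under shBMAL1 ME1 did not pass (−0.09, adjusted p 0.349). The folate enzyme MTHFD2 fell under shARNT (−0.39, adjusted p 5.29e-08).

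Of 17 quinone and carbonyl detoxification genes tested, 10 were higher and 0 lower under shARNT, with a median of 0.19. Under shBMAL1 9 were higher and 5 lower, with a median of 0.17. The called shares were 58.8% and 82.4%, where 35.4% and 36.8% of all genes were called. AKR1C3, an aldo-keto reductase, rose from 593, 675 and 495 counts in shControl to 1438, 1398 and 1271 in shARNT (1.22, adjusted p 2.08e-30) and 1714, 1528 and 1433 in shBMAL1 (1.40, adjusted p 1.05e-33). AKR1C1 rose by 1.48 under shARNT (adjusted p 7.59e-09) and was called higher under shBMAL1 (0.72, adjusted p 0.0371). The latter call was lost without shControl replicate 1 or 2 (adjusted p 0.203 and 0.114) or shBMAL1 replicate 1 (0.242). AKR1C1 shares much of its sequence with AKR1C2 and AKR1C3, so reads may be divided uncertainly among them. ABCC3, an exporter of conjugates, rose under shBMAL1 (0.85, adjusted p 2.2e-38). OSGIN1, an oxidative stress-induced growth inhibitor, had 379, 389 and 426 counts in shControl, 553, 508 and 487 in shARNT and 207, 223 and 233 in shBMAL1. It rose under shARNT (0.38, adjusted p 0.00408) and fell under shBMAL1 (−0.85, adjusted p 6.08e-09). All 3 groups of OSGIN1 were apart, as were those of SQSTM1, GCLC and HMOX1 among the 9. The carbonyl reductase CBR3 fell under shBMAL1 (−0.98, adjusted p 9.55e-09).

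Genes around heme breakdown and iron storage went with HMOX1 in part. Under shARNT 3 of 8 tested were higher and 2 lower, and under shBMAL1 4 of 9 were higher and 2 lower, so that 62.5% and 66.7% were called against 35.4% and 36.8% of all genes. SLC48A1, a heme transporter, had 356, 303 and 309 counts in shControl, 1031, 1059 and 1093 in shARNT and 470, 545 and 441 in shBMAL1. It rose by 1.72 with shARNT (adjusted p 4.72e-64) and by 0.59 with shBMAL1 (adjusted p 6.41e-05), more in the former (direct −1.13, adjusted p 8.29e-26). FTL, the ferritin light chain, rose under shARNT (0.58, adjusted p 4.98e-21) but passed no test for shBMAL1 (−0.06, adjusted p 0.598), with the caution that ferritin genes have many processed copies. BLVRB, a biliverdin reductase, fell in both (−0.49, adjusted p 6.61e-06, and −0.80, adjusted p 1.27e-12), and BLVRA fell under shBMAL1 (−0.29, adjusted p 0.00869). ABCB6, a porphyrin transporter, rose under shBMAL1 (0.43, adjusted p 1.73e-05). FECH, which inserts iron into protoporphyrin to form heme, was lower under shARNT (−0.26, adjusted p 0.0127) but not without shControl replicate 2 (−0.18, adjusted p 0.169).

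Of the 4 genes for superoxide and peroxide removal, 2 were higher and 0 lower under shARNT, and 1 was higher and 1 lower under shBMAL1, 50% called in each against 35.4% and 36.8% of all genes. SOD2, the mitochondrial superoxide dismutase, had 3023, 3290 and 2661 counts in shControl, 7559, 7695 and 6973 in shARNT and 2291, 2298 and 2348 in shBMAL1. It rose by 1.31 (adjusted p 9.04e-72) and fell by 0.37 (adjusted p 5.91e-05) on the log2 scale. CAT, catalase, was higher under shARNT (0.34, adjusted p 1.78e-06), and SOD3 was higher under shBMAL1 (0.56, adjusted p 0.000505). Over all 90 companion genes, 33 were higher and 15 lower of 83 tested under shARNT (median 0.06), and 20 were higher and 29 lower of 88 under shBMAL1 (median −0.06). The called shares were 57.8% and 55.7%, against 35.4% and 36.8% over all genes tested. With low-count genes filtered out, the shares over all genes were 35.9% and 45.6%, so the background under shBMAL1 depends on which genes are tested.

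**Figure D4:**
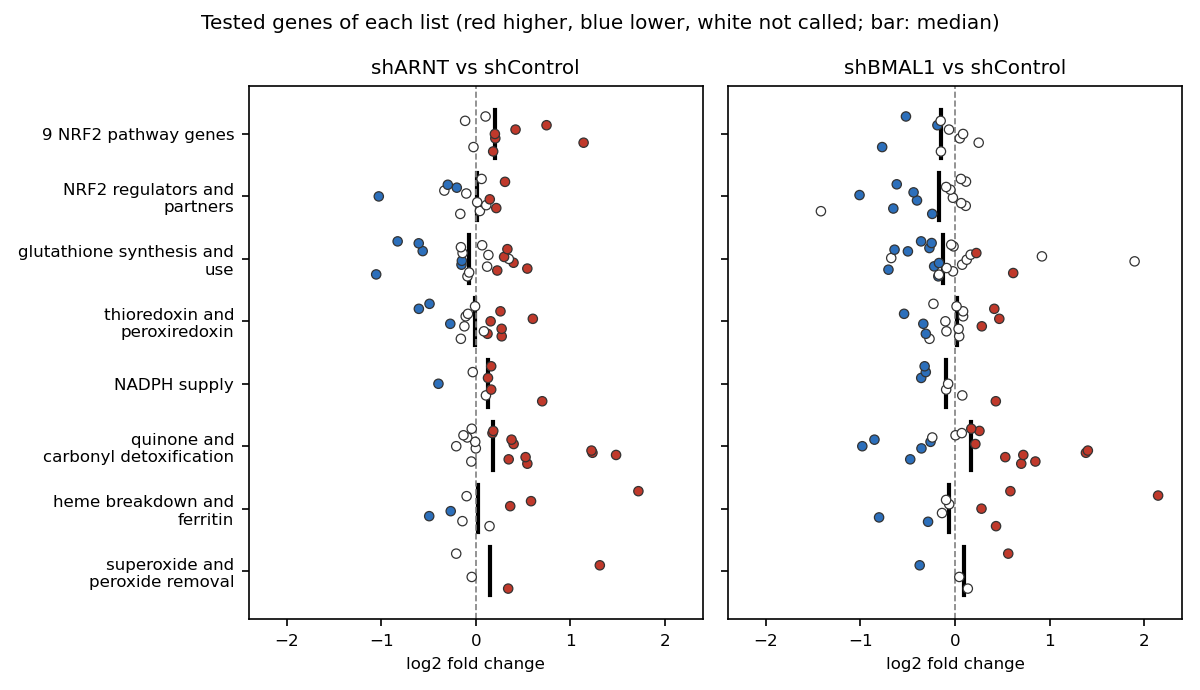
Log2 fold change (x axis) of each tested gene in the 9 NRF2 pathway genes and the 7 companion lists (rows) under shARNT and shBMAL1, with red for higher, blue for lower and white for not called at an adjusted p of 0.1 and a bar at each median. The quinone and carbonyl row holds no blue point under shARNT, and the 9 pathway genes have medians of 0.20 and −0.15.

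The most similar profiles were sought among 11823 genes averaging at least 100 normalised counts. Likeness was the root mean square difference over the 9 libraries of log2 values centred on shControl, where smaller is closer. NFE2L2 was nearest to SLC37A3 (0.04), TMEM159 (0.05) and CTNNB1 (0.05), and NQO1 to ANAPC7 (0.05), DPH2 (0.06) and C6orf48 (0.07). GCLM was nearest to DKC1 (0.06), which went from a mean of 6894 counts in shControl to 6871 in shARNT and 3948 in shBMAL1, then to NMT1 (0.07) and ACSL1 (0.08). HMOX1 had no comparably close neighbour, since MOSPD1, FNIP2 and DOCK4 stood at 0.15, 0.16 and 0.17. None of the 12 neighbours belonged to the 9 genes or the companion lists. The 9 and the 90 companion genes are a small part of the 11823, so this says little about whether pathway genes move together.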

How the data were processed

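RNA from 9 libraries of 786-O cells was analysed, 3 per group. Per the labels and methods, the authors sequenced stranded mRNA libraries paired-end, aligned reads to GRCh37 with SeqMan NGen 17 and exported counts with ArrayStar 17. The submitters' processing notes instead name hg38, STAR and DESeq2. The deposited values were estimated counts (total reads per gene, linear scale). The annotation and strand setting are not given in the sources used here. The stand-in 0.009 was set to 0, fractional values were rounded (0 of 81 values of the 9 genes), and 53 rows were added to rows of the same name.

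Each comparison was fitted in DESeq2 1.42.0 (R 4.3.3) on its 6 libraries, over all genes, with median-of-ratios size factors, the two-sided Wald test, independent filtering and Benjamini-Hochberg adjustment at 0.1. Intervals of 95% are log2 fold change ± 1.96 SE. Normalised counts used size factors over all 9 libraries. Alternatives were edgeR 4.0.16 (quasi-likelihood, default expression filter), other size factors, filters, thresholds, a fit of all libraries, a replicate block and leaving out each library. Scripts were tested on simulated data. Transcripts, coordinates and upstream bases came from GENCODE 44 lifted to GRCh37. Named genes were the 9, the hairpin targets, 7 fixed genes and, per companion list and knockdown, up to 2 most raised and 2 most lowered called genes with a mean of at least 50 counts. C5orf45 was added after its overlap was seen. The 9 genes and all lists were chosen with earlier results of these data known. The values of 1 gene that this rule names are not reported here.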

Additional observations from a re-analysis of the deposited data

Results flagged for a closer look

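SQSTM1 was called in opposite directions by the knockdowns, higher under shARNT and lower under shBMAL1, and the direct test put shBMAL1 below shARNT by a log2 difference of −0.93 (DESeq2 adjusted p 3.24e-48, lower in 3 of 3 libraries). C5orf45, which overlaps it on the opposite strand, had the same direct difference to 2 decimals (−0.93), and whether reads are shared between them was not tested.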

How the results depend on the processing

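Of 432 values for the 9 genes under the alternatives, 397 kept their direction and side of the threshold, 25 lost the call, 7 gained it and 3 turned sign. A 1.5-fold minimum left 2 called genes under shARNT, 1 under shBMAL1 and 4 in the direct comparison, where 7.91%, 13.7% and 11.4% of all genes passed, and among the companion genes 12, 16 and 16, from 48, 49 and 45. Leaving out a library gave 5 to 6 called genes under shARNT, 3 to 4 under shBMAL1 and 6 to 7 in the direct comparison (27.8% to 30.3%, 32.1% to 37.7% and 30.7% to 35% of all genes), and 41 to 45, 43 to 46 and 38 to 48 companion genes. Sign changes, all of values that were not called, came from leaving out a library. Over those fits the log2 fold change ran from −0.082 to 0.015 for GCLM under shARNT (0.0039 without shControl replicate 1), from −0.0058 to 0.11 for BTRC under shARNT, from −0.28 to 0.093 for MAFK under shBMAL1 (0.02 without shBMAL1 replicate 2) and from −0.13 to 0.035 for MTHFD2 under shBMAL1. In the direct comparison it ran from −0.12 to 0.022 for SRXN1, from −0.18 to 0.15 for MAFF (also −0.07 and −0.02) and from −0.21 to 0.015 for PRDX5. The cause was not tested.

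Replicate numbers did not pair the libraries, since deviations of same-numbered libraries correlated at −0.15 to 0.10 and each found its own number as best match in 7 of 18 cases. With the replicate block 5, 3 and 6 of the 9 genes were called in the 3 comparisons, against 27.4%, 33.4% and 32.1% of all genes, so the share under shBMAL1 was that of the background. Among the named genes, the calls lost with the block were GCLC (adjusted p 0.142) and GLRX2 (0.194) under shARNT, BACH1 (0.104), MAFG (0.172), GSTM4 (0.197) and AKR1C1 (0.116) under shBMAL1, and KEAP1 (0.152), PALB2 (0.158) and TXNRD3 (0.213) in the direct comparison.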
